A study of Rattus norvegicus with 3 samples.

Results

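The 10 genes described here encode isoforms of aldolase (Aldoa, Aldoc), enolase (Eno1, Eno3) and phosphofructokinase (Pfkp, Pfkm), phosphoglycerate mutase (Pgam1), the glucose transporters Slc2a1 and Slc2a4 and the lactate transporter Slc16a3. They were taken as every probe set that the platform annotation ties to 1 of these gene symbols, which gave 12 of the 12783 probe sets with 1 symbol and 10 of 10411 genes. Pfkm and Slc2a4 had 2 probe sets each and the other 8 genes 1 each. Expression was measured in ventricular myocytes of newborn rats (Rattus norvegicus) in primary culture, with total RNA taken after 48 h. Of 3 rat arrays from Affymetrix, 1 was hybridised with unstimulated cells, 1 with cells kept in 20 µM phenylephrine, an agonist of α1-adrenergic receptors that makes cultured myocytes grow, and 1 with cells kept in 1 µM PAMH, a compound named only by this code. The labels name no strain, litter or pooling of animals, and no vehicle for the unstimulated culture. With 1 array per condition there is no replicate error, no p-value and no replicate check of any difference, and so few arrays limit the precision of every value. The compounds were given at different doses, and their responses are shown next to each other without a match in dose.

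Glycolysis splits glucose into pyruvate in the cytosol. Glucose enters through the basal transporter encoded by Slc2a1 and, in heart, muscle and fat, through the insulin-responsive transporter encoded by Slc2a4, and lactate made from pyruvate leaves through monocarboxylate transporters. Several steps are served by isoenzymes from separate genes that differ between tissues: the newborn heart relies on glycolysis more than the adult heart, which burns mainly fatty acids, and reuse of fetal isoforms is a known feature of the growing or stressed heart.

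Signals are intensities scaled so that the median probe set was equal on the 3 arrays. A floor was set at an intensity of 76.0, the percentile 40 of all scaled values, and all 12 probe sets lay above it on all 3 arrays. Where a gene had 2 probe sets, the one with the higher mean signal over the 3 arrays, called the brighter, stood for it in counts, and both are given below. On the cardiac side the cultures carried their label: all 11 myocyte markers on the array, among them the myosin heavy chain gene Myh6 and the troponin gene Tnnt2, were above the floor on all arrays.

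Isoforms of the same step went different ways. Slc16a3 was 5.00-fold higher with phenylephrine and 3.38-fold higher with PAMH, Pfkp was higher by log2 ratios of 1.58 and 1.40, and Aldoc was 6.25-fold and 3.48-fold lower. Eno3 was 4.84-fold higher with phenylephrine but 1.97-fold lower with PAMH. The isoenzyme genes Aldoa and Eno1 differed from the unstimulated array by at most 1.51-fold.

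With phenylephrine, 5 of the 10 genes exceeded the unstimulated array at least 1.5-fold (Slc16a3, Eno3, Pfkp, Slc2a4 and Pgam1), 2 were at least 1.5-fold lower (Aldoc and Pfkm) and 3 lay between (Aldoa, Eno1 and Slc2a1). Of all 6571 genes measured on both arrays, 8.90% were higher and 4.54% lower by this threshold. The 10 genes were picked with earlier results of these arrays known, so their larger shares are a description. At 2-fold the counts were 3 higher and 1 lower, against 2.62% and 0.761% of all genes. The median log2 ratio of the members was 0.53 and that of all genes 0.07. The higher members were 4 and not 5 on the deposited intensities and after quantile or cyclic loess normalization, where Pgam1 was below 1.5-fold, and with the mean over probe sets, where Slc2a4 was. On the deposited intensities, without further scaling, the split of all genes past 1.5-fold turned from 585 higher and 298 lower to 396 higher and 518 lower. After quantile normalization it was 477 and 389.

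With PAMH, again 5 genes passed 1.5-fold upwards (Slc16a3, Pfkp, Slc2a4, Pgam1 and Aldoa), 2 lower (Aldoc and Eno3) and 3 between (Eno1, Pfkm and Slc2a1). Of all 6549 genes, 9.31% were higher and 4.17% lower. At 2-fold, 3 members were higher and 1 lower, against 2.05% and 0.794% of all genes. The members' median log2 ratio was 0.45, and that of all genes 0.10. Aldoa, at 1.51-fold, and Pgam1, at 1.60-fold, were below 1.5-fold on the deposited intensities and after quantile or cyclic loess normalization, which left 3 higher members. The split of all genes past 1.5-fold turned from 610 higher and 273 lower to 350 and 515 on the deposited intensities, 492 and 353 with scaling on percentile 75, 421 and 376 after quantile normalization and 413 and 363 after cyclic loess. Both sets of ratios use the same unstimulated array, so any deviation of that array enters both.

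**Figure D1:**
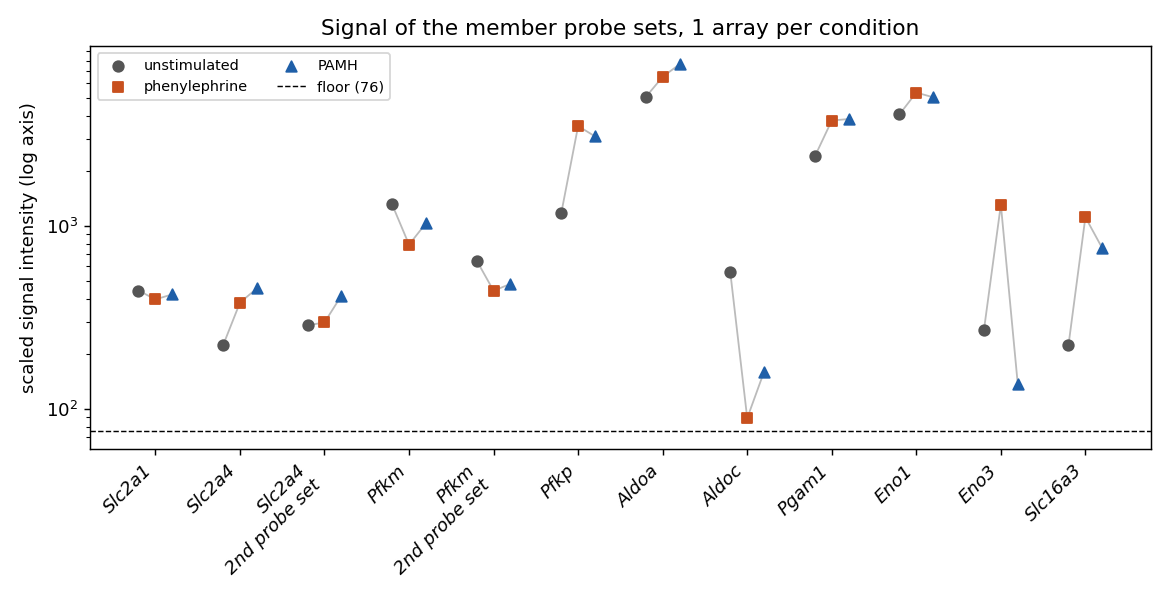
Scaled signal intensity (log axis) of the 12 probe sets of the 10 genes, in pathway order from glucose uptake to lactate export, with 1 point per array (circle, unstimulated; square, phenylephrine; triangle, PAMH) and the floor of 76.0 as a dashed line. Eno3 is the gene in which the PAMH array (136) lies below and the phenylephrine array (1305) above the unstimulated array (270), and Aldoc with phenylephrine (88.9) is the point nearest to the floor.

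The promoters of the 4 genes with the widest differences are shown, because they can be set against the motifs best known for glycolytic genes. RefSeq's table for the rat assembly GRCr8 held 12 promoters of 9 of the 10 genes, each of 300 bases, from 250 before to 50 after a gene start. They are Slc16a3 (chr10:106712078-106712377, plus strand), Pfkp (chr17:68639563-68639862, plus strand), Eno3 (chr10:55868936-55869235, plus strand) and Aldoc (chr10:63715294-63715593, plus strand), printed 5′ to 3′ with the core letters of the hypoxia response element in capitals, that is ACGTG or GCGTG on either strand.
Slc16a3: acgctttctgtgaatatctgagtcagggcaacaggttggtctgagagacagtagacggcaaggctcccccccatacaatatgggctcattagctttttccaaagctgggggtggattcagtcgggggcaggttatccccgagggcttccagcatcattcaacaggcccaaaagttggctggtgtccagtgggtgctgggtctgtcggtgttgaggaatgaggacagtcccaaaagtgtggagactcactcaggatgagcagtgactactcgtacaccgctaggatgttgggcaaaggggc
Pfkp: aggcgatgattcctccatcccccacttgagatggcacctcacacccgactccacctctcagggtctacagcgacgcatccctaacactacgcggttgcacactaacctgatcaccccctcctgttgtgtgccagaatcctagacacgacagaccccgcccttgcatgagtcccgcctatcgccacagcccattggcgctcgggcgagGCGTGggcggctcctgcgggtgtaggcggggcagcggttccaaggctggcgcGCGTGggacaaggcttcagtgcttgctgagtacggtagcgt
Eno3: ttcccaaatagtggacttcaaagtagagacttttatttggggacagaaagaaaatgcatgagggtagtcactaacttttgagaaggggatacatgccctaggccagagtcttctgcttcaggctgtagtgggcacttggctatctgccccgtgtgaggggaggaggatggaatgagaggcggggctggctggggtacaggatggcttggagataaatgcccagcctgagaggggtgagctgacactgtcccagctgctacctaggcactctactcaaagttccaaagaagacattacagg
Aldoc: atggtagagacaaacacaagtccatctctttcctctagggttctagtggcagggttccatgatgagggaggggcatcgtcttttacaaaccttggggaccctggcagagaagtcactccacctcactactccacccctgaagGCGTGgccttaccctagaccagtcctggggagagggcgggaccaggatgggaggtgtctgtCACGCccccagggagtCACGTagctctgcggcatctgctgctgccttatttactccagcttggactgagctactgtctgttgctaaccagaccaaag

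Pfkp held 2 of these cores and Aldoc 3, while the windows of Slc16a3 and Eno3 held none. A core was found in 8 of the 12 member promoters and 7 of the 9 genes, and in 41.6% of all 33469 promoters of the table. The window with most cores, 4, was that of Slc2a1, whose signal differed least between the arrays. The GC box, GGGCGG on either strand, was found in 6 member promoters, among them Pfkp and Aldoc but not Slc16a3 or Eno3, and in 33.1% of all promoters. The E-box CACGTG, which contains the core ACGTG, was in none of the 12 and in 6.42% of all. The MEF2 motif, known for muscle genes, was in 1 of the 3 Aldoa promoters and in 3.29% of all. GC content ranged from 50.3% to 68.3% over the member promoters, against a median of 51.7% over all. A match describes the letters in the window and says nothing of binding, and genes with higher and with lower signal both had cores.

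The lactate transporter gene Slc16a3 had the highest log2 ratio of the 10 genes with both compounds. Slc16a3, which encodes a monocarboxylate transporter known for lactate efflux from glycolytic muscle, had a scaled signal of 223 on the unstimulated array, 1114 with phenylephrine and 754 with PAMH. Both treated arrays thus stood well above the unstimulated one, by log2 ratios of 2.32 and 1.76. Of the 6571 genes measured with phenylephrine, 6 had a higher ratio, and of the 6549 measured with PAMH, 12. Genes below the floor on either array of a comparison had no ratio, so they are not ranked here or below. Under the 8 processing alternatives the log2 ratio ranged from 2.09 to 2.32 with phenylephrine and from 1.56 to 1.76 with PAMH. Bsg, which encodes basigin, the membrane partner that these transporters need, was 1.67-fold higher with phenylephrine and 1.66-fold with PAMH. Slc16a1, the more widespread monocarboxylate transporter gene, had log2 ratios of 0.03 and 0.23.

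The glucose transporter genes differed from one another. Slc2a1 had signals of 443, 396 and 422 on the unstimulated, phenylephrine and PAMH arrays, log2 ratios of -0.16 and -0.07, both well inside 1.5-fold. Slc2a4 depended on the probe set. The brighter one had signals of 222, 380 and 455, which is 1.71-fold higher with phenylephrine and 2.05-fold with PAMH. The other one had 286, 296 and 415, or log2 ratios of 0.05 and 0.54, inside 1.5-fold with both compounds. On the unstimulated array it was the brighter of the pair, so the treated arrays decided which probe set stood for Slc2a4 in the counts. For phenylephrine the 2 probe sets differed by 0.73 on the log2 scale, where the SD between probe sets of 1 gene was 0.27 over 864 genes, and their mean of 0.41 was below 1.5-fold. For PAMH both were above 0 and their mean was 0.79. The annotation links the 2 probe sets to different source sequences, and the suffix of the brighter one marks probes shared by several transcripts of the gene.

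Phosphofructokinase, which commits sugar to glycolysis, showed opposite differences in its platelet-type and muscle-type genes. Pfkp had a signal of 1170.1 on the unstimulated array, 3511 with phenylephrine and 3080 with PAMH, and so log2 ratios of 1.58 and 1.40. It remained above 2-fold under all 8 alternatives, with a lowest log2 ratio of 1.34 for phenylephrine and 1.08 for PAMH. Pfkm, the main form in heart and skeletal muscle, had signals of 1309, 789 and 1033 by its brighter probe set and 646, 442 and 482 by the other. Both treated arrays were below the unstimulated one by both probe sets. With phenylephrine Pfkm was 1.66-fold lower by the brighter and 1.46-fold lower by the other probe set, and with PAMH 1.27-fold and 1.34-fold lower. The 2 probe sets differed by less than the SD between probe sets of 1 gene in both comparisons, and the annotation gives them the same source sequence. The log2 ratio of Pfkp exceeded that of Pfkm by 2.32 with phenylephrine and 1.74 with PAMH. Pfkl, the liver-type gene, was dim (81.8, 135 and 112) and had log2 ratios of 0.72 and 0.45.

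Aldolase, which cleaves fructose bisphosphate, also had isoform genes that differed from one another, but here the muscle form was not the lower one. Aldoa, the muscle and general form, was among the brightest genes, with signals of 5059, 6520 and 7638. Both treated arrays were higher, by log2 ratios of 0.37 and 0.59, which became 0.03 and 0.16 after cyclic loess normalization. Aldoc, the form known from brain, had signals of 556, 88.9 and 160. Both treated arrays lay far below the unstimulated one, by log2 ratios of -2.64 and -1.80. Of all genes measured, 1 had a lower ratio than Aldoc with phenylephrine and 3 with PAMH. Its phenylephrine signal was 1.17 times the floor, and with the floor at percentile 50 (110.5) that ratio was replaced by a bound, Aldoc being at least 5.03-fold lower. Adding an offset of 50 brought the log2 ratios to -2.12 and -1.53. The log2 ratio of Aldoa exceeded that of Aldoc by 3.01 with phenylephrine and 2.39 with PAMH.

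Pgam1, which encodes the general phosphoglycerate mutase, had signals of 2395, 3762 and 3834. The treated arrays were close to each other and above the unstimulated one, 1.57-fold for phenylephrine and 1.60-fold for PAMH, and these log2 ratios (0.65 and 0.68) became 0.36 and 0.29 after quantile normalization. The muscle mutase gene Pgam2 went the other way, with signals of 354, 293 and 227 and log2 ratios of -0.27 and -0.64.

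Enolase gave the clearest contrast between the compounds. Eno1, the general form, had signals of 4062, 5351 and 5039 and log2 ratios of 0.40 and 0.31, the latter turning to -0.09 under both quantile and cyclic loess normalization. Eno3, the muscle enolase gene that replaces Eno1 as striated muscle matures, had signals of 270 on the unstimulated array, 1305 with phenylephrine and 136 with PAMH. The phenylephrine array was thus the highest by far and the PAMH array the lowest, at log2 ratios of 2.28 and -0.98 to the unstimulated one. With phenylephrine 9 of the 6571 genes had a higher ratio. With PAMH 57 of 6549 had a lower one. Under the 8 alternatives the log2 ratio ranged from 2.08 to 2.28 with phenylephrine and from -1.14 to -0.78 with PAMH. Eno3 rests on 1 probe set, and neither a second probe set nor a second array was there to check it. Eno2, the neuronal enolase gene, was dim (105, 114 and 130) with log2 ratios of 0.11 and 0.31.

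**Figure D2:**
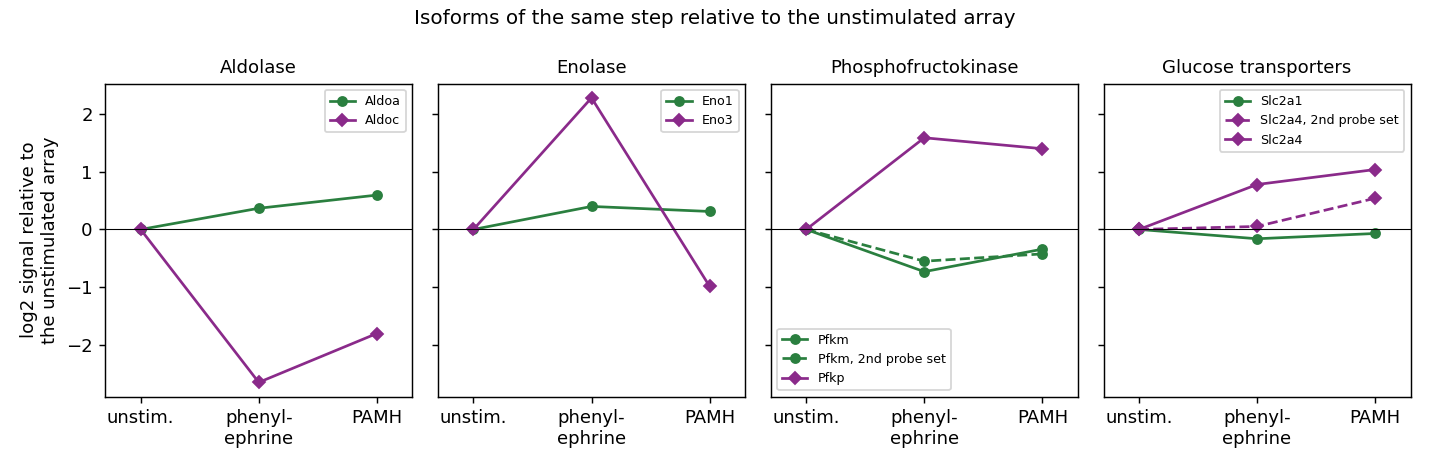
Log2 signal of each isoform relative to the unstimulated array (y axis) on the 3 arrays (x axis), for aldolase, enolase, phosphofructokinase and the glucose transporters. Solid lines are the brighter probe set of a gene and dashed lines the second one of Pfkm and of Slc2a4; Aldoc reaches -2.64, Eno3 runs from 2.28 with phenylephrine to -0.98 with PAMH, and Pfkp and Pfkm lie on opposite sides of 0.

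Between the treated arrays most of these genes differed little. With PAMH over phenylephrine, 1 member was at least 1.5-fold higher (Aldoc) and 1 lower (Eno3), with 8 between, while 1.93% of 6593 genes were higher and 2.67% lower. At 2-fold no member was higher and Eno3 was lower, against 0.197% and 0.364% of all genes. Eno3 was 9.56-fold lower with PAMH than with phenylephrine, a log2 ratio of -3.26, and none of the 6593 genes had a lower one. Aldoc was 1.80-fold higher, from a phenylephrine signal near the floor. Slc16a3 was 1.48-fold lower with PAMH, on the edge of the threshold, and passed it without further scaling (log2 ratio -0.59), with percentile 75 as the scaling target (-0.59) and after cyclic loess (-0.60). Pfkp (-0.19), Aldoa (0.23), Eno1 (-0.09), Slc2a1 (0.09), Slc2a4 (0.26), Pfkm (0.39) and Pgam1 (0.03, with either sign across the alternatives) lay inside 1.5-fold. As the doses were 20 µM and 1 µM, these values compare 2 cultures and not the compounds at equal dose.

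The ratio depended on signal, which bears on the bright genes of this group. With genes cut into 10 classes of equal size by mean signal, the brightest class had median log2 ratios of 0.24 for phenylephrine and 0.32 for PAMH, and the dimmest 0.00 and 0.01. Aldoa, Eno1, Pgam1 and Pfkp belonged to the brightest class. Against it, Aldoa was higher by 0.13 with phenylephrine and 0.27 with PAMH, Eno1 by 0.16 with phenylephrine and lower by a difference of -0.01 with PAMH, and Pgam1 higher by 0.41 and 0.36. Pfkp was higher than this class by 1.34 and 1.07. Slc16a3, in the class below, was higher than its class by 2.17 and 1.56, and Aldoc stood at -2.65 and -1.86 against its own. Eno3 stood at 2.17 and -1.13. Aldoa and Eno1 thus lay within 0.27 of the median of genes as bright, and these other 4 genes lay more than 1 log2 unit from theirs.

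**Figure D3:**
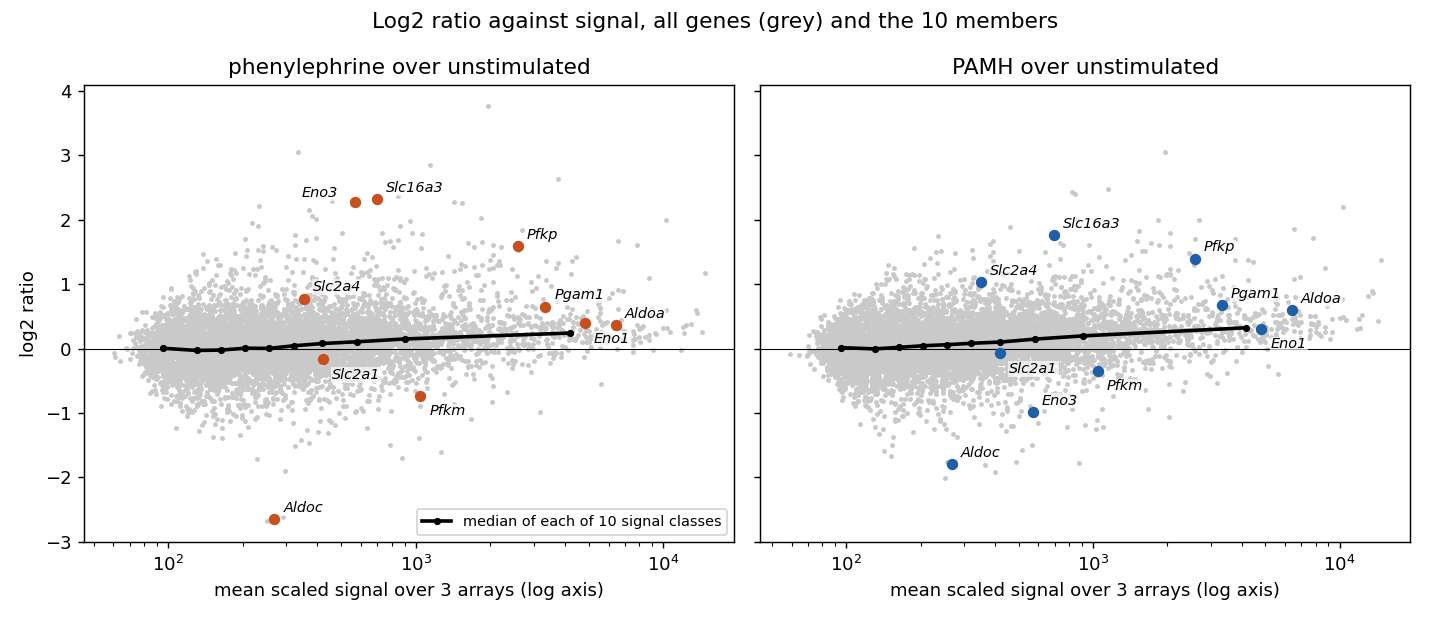
Log2 ratio to the unstimulated array (y axis) against mean scaled signal over the 3 arrays (log axis) for phenylephrine (left) and PAMH (right); grey points are all genes measured, the black line joins the medians of the genes in each of 10 classes by signal, and coloured points are the 10 genes. The black line climbs to 0.24 and 0.32 at the bright end, where Aldoa and Eno1 lie, while Slc16a3, Pfkp and Aldoc lie far from it in both panels.

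Other genes of glycolysis, from a list that leaves out the 10, had medians above 0 with both compounds but went both ways. Of 23 listed genes, 18 were on the array with 1 symbol. With phenylephrine 13 were measured, with a median log2 ratio of 0.22 beside 0.07 for all genes. Past 1.5-fold, 2 lay above (Hk1 and Pfkl) and none below, while Pfkfb2 (-0.35), Bpgm (-0.38), Pgam2 (-0.27) and Adpgk (-0.17) had log2 ratios under 0. With PAMH 12 were measured, with a median of 0.45 beside 0.10; 2 were higher and 1, Pgam2, was lower. After quantile normalization these medians were 0.04 and 0.13. The hexokinase gene Hk1, whose product traps glucose in the cell, had signals of 750 unstimulated, 1238 with phenylephrine and 1184 with PAMH, and was 1.65-fold and 1.58-fold higher. Hk2, the insulin-sensitive hexokinase gene, was dim (91.0, 106 and 144) and was 1.58-fold higher with PAMH. Bright enzyme genes lay close together: Tpi1 of triose phosphate isomerase had log2 ratios of 0.34 with phenylephrine and 0.52 with PAMH, Pgk1 of phosphoglycerate kinase 0.39 and 0.46, the lactate dehydrogenase genes Ldha 0.40 and 0.53 and Ldhb 0.31 and 0.46, and Gpi of glucose phosphate isomerase 0.15 and 0.28. Gapdh was read by 3 control probe sets, which gave 0.27 to 0.37 with phenylephrine and 0.46 to 0.56 with PAMH. The regulators Pfkfb3 and Pfkfb4 and the pyruvate kinase gene Pklr were below the floor on all 3 arrays. Pkm, the other pyruvate kinase gene of the list, had no probe set with 1 symbol and was not read.

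Of the other glucose and monocarboxylate transport genes, 14 of 18 were on the array and 5 could be compared with the unstimulated array, of which Bsg and Tbc1d1 passed 1.5-fold upwards with both compounds. Tbc1d1, a regulator of glucose transporter vesicles, was 1.57-fold higher with phenylephrine and 1.82-fold with PAMH. Txnip, which encodes an inhibitor of glucose uptake, had signals of 1327, 873 and 1139, log2 ratios of -0.60 and -0.22, so it passed 1.5-fold with phenylephrine and not with PAMH. The genes for pyruvate entry into mitochondria had medians of 0.29 over 12 genes with phenylephrine and 0.29 over 13 with PAMH, with 1 and 3 higher and none lower by the brighter probe sets. By the second probe sets, Pdk1 was 1.66-fold lower with phenylephrine (log2 ratio 0.05 with PAMH) and Pdha1 was 1.55-fold higher with both compounds. The pyruvate carrier gene Mpc1 was 1.55-fold and 1.62-fold higher, and Pdhx and Pdp2 of the pyruvate dehydrogenase system were 1.54-fold and 1.59-fold higher with PAMH.

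The 12 measured genes of the glycogen and hexose list had medians of -0.17 with phenylephrine and -0.03 with PAMH. Pgm1, whose enzyme links glucose phosphate to glycogen, had signals of 598, 1333 and 1462 and was 2.23-fold and 2.44-fold higher, and its second probe set gave 2.27-fold and 2.46-fold. Gys1 of glycogen synthase (1.79-fold) and the glycogenin gene Gyg1 (1.73-fold) were higher with PAMH, with log2 ratios of 0.58 and 0.43 with phenylephrine. The brain glycogen phosphorylase gene Pygb had log2 ratios of -0.60 and -0.50. In the pentose phosphate pathway 1 of 6 genes, Pgd, passed 1.5-fold with PAMH (1.54-fold) and none with phenylephrine, where Pgd had a log2 ratio of 0.58. The second probe set of Rpia passed it upwards with both compounds (0.71 and 0.59), against 0.24 and -0.10 by its brighter one. None of 8 genes of the glycerol and malate-aspartate shuttles and none of 2 measured genes of gluconeogenesis passed it in either direction with either compound.

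Several of these enzymes are textbook targets of the hypoxia-inducible factors, and a list of 16 hypoxia-inducible genes outside glycolysis is set beside them. Over its 13 measured genes, which include Hif1a and Epas1 of the factors themselves, the median log2 ratio was -0.24 for phenylephrine and -0.10 for PAMH. Adm (143, 68.5 and 31.6) was above the floor on the unstimulated array alone and is not in these medians. Egln3, an oxygen-sensing hydroxylase gene, had signals of 428, 930.4 and 588 and was 2.17-fold higher with phenylephrine, with a log2 ratio of 0.46 with PAMH. Epas1, which encodes a hypoxia-inducible factor subunit, was lower at log2 ratios of -1.10 and -1.37, while its dimmer probe set gave -0.03 with phenylephrine. Ddit4, a stress-induced inhibitor of growth signalling, had -0.52 and -0.95, and Hif1a -0.49 and -0.24. Vegfa went the other way, with 0.12 and 0.30 by its brighter probe set and 0.68 and 0.74 by the other. Of 14 measured regulators of glycolytic and Slc2a4 expression, 1 was higher and 3 lower with phenylephrine, and 2 were higher and 1 lower with PAMH. Klf15, a transcription factor gene known to raise Slc2a4, had signals of 207, 95.5 and 194, log2 ratios of -1.11 for phenylephrine and -0.09 for PAMH. The muscle transcription factor gene Mef2d was 1.52-fold higher on both treated arrays, with 0.67 and -0.13 by its second probe set. Prkaa2, a catalytic subunit gene of the energy sensor AMPK, was 1.69-fold higher with PAMH. Foxo3 (-0.67 with phenylephrine) and Trib3 (-0.63 with phenylephrine and -1.09 with PAMH) were lower.

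**Figure D4:**
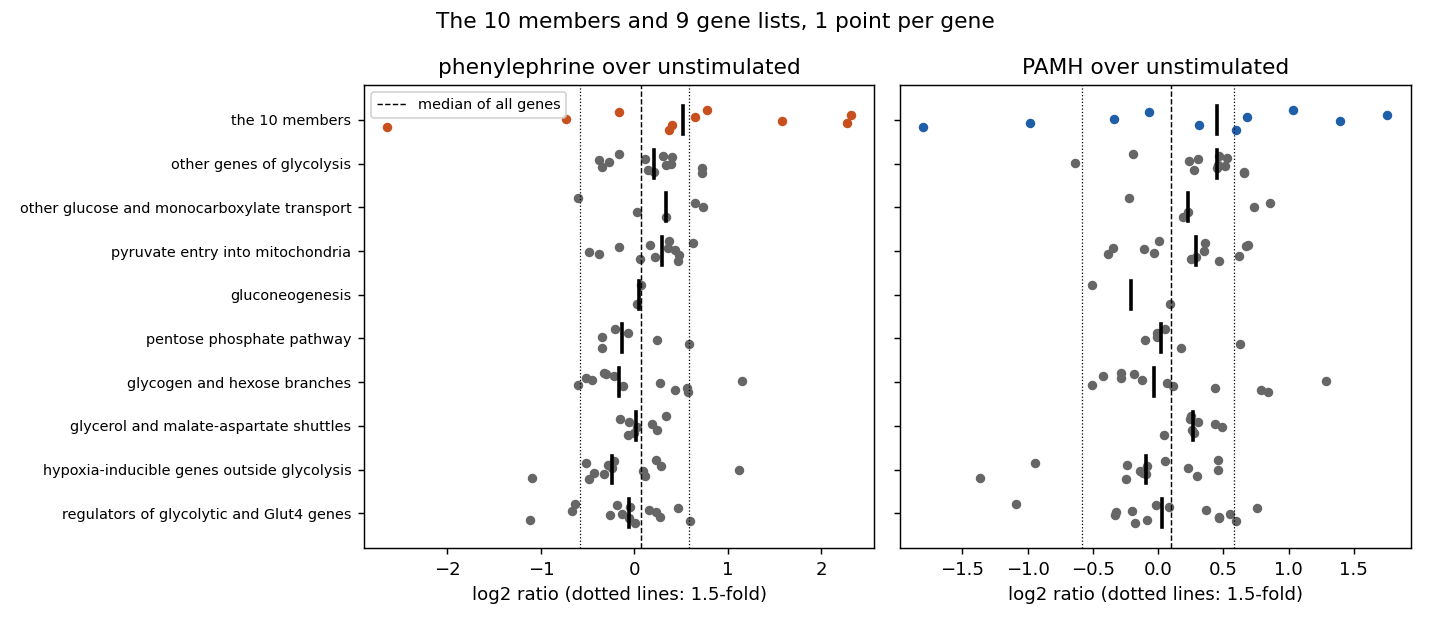
Log2 ratio to the unstimulated array (x axis) of each measured gene, 1 point per gene, for the 10 genes (coloured) and 9 lists of related genes (grey), with phenylephrine on the left and PAMH on the right. Thick bars are list medians, the dashed line is the median of all genes and the dotted lines are 1.5-fold; the 10 genes spread from -2.64 to 2.32 with phenylephrine and from -1.80 to 1.76 with PAMH.

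The cultures may hold cells other than myocytes, and with RNA from whole cultures fewer cells of a type and less RNA per cell cannot be told apart. The summed signal of 11 myocyte markers was 73531 unstimulated, 89025 with phenylephrine and 106823 with PAMH, with 2 and 4 of 11 at least 1.5-fold higher. For 10 fibroblast and matrix markers it was 9538, 7329 and 5677, with 1 of 8 measured genes lower with phenylephrine and 6 of 8 with PAMH. For 6 smooth muscle markers, all measured, it was 4982, 11796 and 9974, with 4 and 3 higher, and 1, Myh11, lower with PAMH. The part of these shifts in the results above was not tested. Beside Aldoc stand 8 neural and Schwann cell markers, whose summed signal was 969, 1441 and 1392. S100b, Mbp, Nefl and Tubb3 were below the floor on all arrays. Of the 3 measured, 1, Slc1a3, passed 1.5-fold, upwards with both compounds. The sum rests largely on Slc1a3 (394, 714 and 742) and Uchl1 (238, 345 and 308), so it does not stand for the markers as a set. Which cells gave the Aldoc signal was not tested. Beside Eno3 stand 10 skeletal muscle markers, with sums of 3090.1, 6748 and 5971, where 1 gene, Casq1, passed 1.5-fold, upwards, of 3 measured with phenylephrine and 4 with PAMH. Casq1 had signals of 255, 3478 and 2118, 13.7-fold and 8.31-fold higher, and gave most of the rise in the sums. Its signal was higher with phenylephrine than with PAMH, as was that of Eno3. The embryonic myosin gene Myh3 had signals of 26.6, 523 and 846, under the floor without stimulus and far above it on both treated arrays, highest with PAMH where Eno3 was lowest. Myod1, Myh4, Tnnt3 and Actn3 were below the floor throughout, Ckm had log2 ratios of -0.18 and 0.05, and the fast myosin light chain gene Myl1 had signals of 33.9, 305 and 66.4, above the floor with phenylephrine alone. The endothelial markers Pecam1, Vwf and Kdr and the macrophage markers Cd68, Ptprc and Lyz2 were below the floor on all arrays, as were the erythroid markers Hbb and Ahsp. Other markers of these lists were not. The macrophage list's Cd74 (121, 80.0 and 84.5) and Aif1 (91.2, 103 and 135) and the erythroid Slc4a1 (132, 155 and 184) were above it on all arrays. The second probe sets of Aif1 and Slc4a1 were below it throughout. Csf1r was above it on both treated arrays (79.2 and 110), and the endothelial Tie1 (79.8) and erythroid Alas2 (110) with phenylephrine alone.

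For the 5 members past 2-fold in a comparison with the unstimulated array, the 3 genes nearest in pattern were sought among 6400 genes above the floor on all 3 arrays, by the distance between their pairs of log2 ratios (phenylephrine and PAMH, each over unstimulated). This likeness rests on 3 arrays only, and Slc2a4 entered at a log2 ratio of 1.04 with PAMH, which most alternatives put below 2-fold. Nearest to Slc16a3 were Tnfrsf12a (distance 0.09), Ckb (0.14) and Pdlim7 (0.30). Pfkp had Slc12a7 (0.04), Plbd1 (0.13) and S1pr1 (0.14), and Slc2a4 had Micall1 (0.03), Zmpste24 (0.04) and Rab11fip5 (0.05). For Aldoc the nearest was Bcl2l11 (0.21), followed at a distance by Lrrc10 (0.95) and Adra1b (1.09). Eno3 had no near neighbour: Tnfrsf11b (1.27), Ptgis (1.31) and Fibin (1.31) came closest. Eno3 and Serpinf1 were the 2 of these 6400 genes that passed 1.5-fold upwards with phenylephrine and downwards with PAMH.

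**Figure D5:**
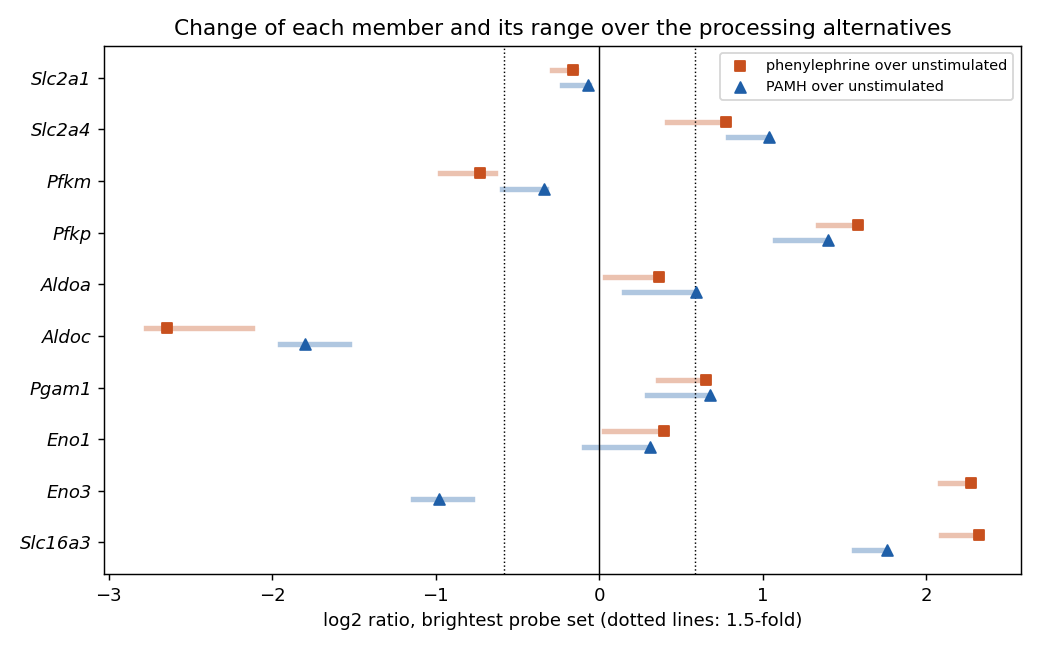
Log2 ratio to the unstimulated array (x axis) of each of the 10 genes by its brighter probe set, for phenylephrine (squares) and PAMH (triangles). Pale bars span the 8 processing alternatives (7 for Aldoc with phenylephrine) together with the value as reported, and dotted lines mark 1.5-fold; the bars of Slc16a3, Pfkp, Aldoc and Eno3 stay on 1 side beyond 1.5-fold, and those of Pgam1, of Aldoa and Pfkm with PAMH and of Slc2a4 with phenylephrine cross it.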

How the data were processed

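Total RNA of 3 cultures was measured on 1 Affymetrix rat array each. The deposited values are linear signal intensities, 1 per probe set and array, which the authors made by steps not given in the sources used here. Their mean after trimming 2% at each end was 250.1 on each array. Of 15923 probe sets, 57 were controls; of the rest, 12783 carried 1 symbol in the platform annotation, 312 several and 2771 none. Symbols were updated by gene identifier for 12748 of the 12783, and the remainder kept their annotated symbol. Probe sets with several symbols or none entered only the scaling and the floor.

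Each array was multiplied by 1 factor to equalise the medians of non-control probe sets (0.937 unstimulated, 1.02 phenylephrine, 1.04 PAMH). Before this, the medians of the treated arrays differed from the unstimulated one by log2 ratios of -0.13 and -0.15. A ratio needed both arrays at or above the floor (percentile 40). Genes were counted at 1.5-fold and 2-fold, and the pooled SD between probe sets of 1 gene on the log2 scale (0.27, 0.29 and 0.23 for phenylephrine over unstimulated, PAMH over unstimulated and PAMH over phenylephrine) is a technical yardstick without variation between cultures. No test was possible with 1 array per group.

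From each pathway list, measured genes past 1.5-fold with either compound were named, up to the 6 furthest from 0; others in the text were added after their values were seen, for their role. The members and lists were chosen with earlier results of these data known. Ratios and counts were tested on simulated data. Alternatives were 4 other scalings, floors at percentiles 30 and 50, an offset of 50 and the mean over probe sets. Python 3.11.15, numpy 2.4.6, pandas 2.3.3, R 4.3.3 and limma 3.58.1 (quantile and cyclic loess normalization) were used.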

Additional observations from a re-analysis of the deposited data

How the results depend on the processing

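Of 238 ratios of single members recomputed under the alternatives, 220 moved by less than the SD between probe sets of 1 gene and none past 1.5-fold changed sign. Many of the 220 could not have moved further. A floor only decides whether a ratio is given, and the mean over probe sets leaves genes with 1 probe set unchanged. The deposited intensities and percentile 75 shift all ratios of a comparison by 1 constant, smaller than that SD. The count of 220 is therefore no measure of robustness. On the deposited intensities, after quantile normalization and after cyclic loess, 4 members in place of 5 passed 1.5-fold upwards with phenylephrine and 3 in place of 5 with PAMH; with the mean over probe sets it was 4 with phenylephrine. The median of the other glycolysis genes with PAMH moved from 0.45 to 0.13 under both quantile and cyclic loess normalization. With the floor at percentile 50, Aldoc was not measured with phenylephrine, which left 1 lower member there and 0 higher members for PAMH over phenylephrine. In that last comparison 2 members, not 1, were lower after cyclic loess, with percentile 75 as the scaling target and without further scaling. Pfkm passed 1.5-fold with PAMH after quantile normalization (-0.60). Counts of all genes past 1.5-fold moved by over 1.5 times on the deposited intensities (as given in the comparisons), with an offset of 50 (lower genes from 298 to 177 with phenylephrine and from 273 to 158 with PAMH; for PAMH over phenylephrine from 127 to 63 higher and from 176 to 85 lower) and with the floor at percentile 30 (192 higher for PAMH over phenylephrine). The causes of these shifts were not tested. Aldoc with phenylephrine (88.9 against a floor of 76.0) is limited by signal over background. No paired analysis was possible because each group had 1 array.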

Other observations

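Opposite differences past 1.5-fold were rare in these arrays. Besides Eno3, Serpinf1, which encodes a secreted serpin, was higher with phenylephrine and lower with PAMH, with scaled signals of 118 on the unstimulated array, 205 with phenylephrine and 77.8 with PAMH, the last near the floor. In the other direction stood 1 gene of 6400, Zfp638, with signals of 349, 201 and 535.0. Each of these genes was read by 1 probe set. Slc16a6, another member of the monocarboxylate transporter family, picked after its values were seen, had signals of 31.0, 135 and 109 and was thus below the floor on the unstimulated array alone, while its second probe set (61.1, 106 and 74.2) was above it with phenylephrine alone.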
